A study of Mus musculus with 24 samples.

Results

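Bulk RNA sequencing of the medial prefrontal cortex was used to compare socially isolated mice kept in an enriched environment (SI_EE) with isolated mice that had none (SI_Con). The comparison holds 8 of the 24 libraries of the series, 4 in each group, chosen by their titles, and every difference below is SI_EE minus SI_Con. All 8 carry the genotype label 5xFAD, the tissue label medial prefrontal cortex and the same batch date. The treatment label is EE in the first group and SI in the second. The remaining libraries of the series have the titles GH_Con, GH_EE, GH_WT and SI_WT, and GH and WT are not explained in the sources used here. Those libraries enter the edgeR fits below, where all groups share 1 estimate of the spread. In 5xFAD mice human transgenes with familial Alzheimer's disease mutations, APP among them, are driven by the Thy1 promoter, mainly in neurons. Both groups carry that genotype and both are isolated, so neither is a reference for the transgenes or for isolation itself. The series title also names resocialization, which the labels tie to no group, and they give neither age, sex nor length of housing. Titles number the libraries 1 to 4 without saying whether separate mice gave them, and a p-value here weighs a difference only against the scatter among the libraries. In bulk tissue, fewer cells of a type and less RNA per cell cannot be told apart.

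An enriched environment gives caged rodents toys, wheels, shelters and changing objects, and social isolation removes contact with cage mates. Neuronal activity of the kind that exploration evokes switches on immediate early transcription factors within minutes, such as Fos, Npas4 and the Egr family. These in turn drive slower effector genes that act at synapses, among them Bdnf, Homer1, Nptx2 and Inhba. In prefrontal cortex, isolation is known for effects on myelin, interneurons and stress hormone signalling, and in amyloid-bearing cortex microglia and astrocytes express genes of their own around plaques.

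Total counts ran from 34968646 to 37860026 in these 8 libraries. SI_EE 1 stood apart from the other libraries on the first principal component, which held 20.8% of the variance of the series. It carried transcripts of cerebellum. Gabra6, a GABA receptor subunit of granule cells, was at 342 CPM (the depth-scaled read count, on totals scaled by the trimmed mean of M-values), and Pcp2, made by Purkinje cells, was at 242 CPM. In the remaining 7 libraries Gabra6 did not exceed 0.159 CPM and Pcp2 did not exceed 0.316 CPM. Summed over the cerebellar list, SI_EE 1 held 9041 CPM, against 1306 to 1627 in SI_EE 2, 3 and 4 and 961 to 1550 in SI_Con. Neurod6, which marks forebrain pyramidal neurons, was at 21.6 CPM in SI_EE 1 and at 60.4 to 90.7 CPM in the others. The mean of the forebrain pyramidal list was 5.96 log2 CPM in SI_EE 1, 7.56 to 7.70 in SI_EE 2, 3 and 4 and 7.19 to 7.88 in SI_Con. Slc17a7 was less far apart (584 CPM, and 647 to 1396 CPM in the others), and Foxp2 in SI_EE 1 lay within the others (18.6 CPM, and 16.7 to 33.4 CPM). Whether the tissue was medial prefrontal cortex rather than other forebrain was not tested. Because of the cerebellar transcripts, each result is given with SI_EE 1 (8 libraries) and without it (7 libraries). Xist and Y-linked genes split SI_EE into 1 female and 3 male libraries and SI_Con into 2 and 2. SI_EE 4 was the female library of SI_EE, and SI_Con 1 and SI_Con 2 were those of SI_Con. Longer genes read lower in SI_Con 2 and SI_Con 3 (Spearman's rho across genes between length and the deviation from the mean −0.45 and −0.36) and higher in SI_EE 3 and SI_EE 4 (0.32 and 0.31). An entry spelt APP in human capitals was at 337, 1814, 3218 and 3702 CPM in SI_EE 1 to 4 and at 2160, 2727, 1041 and 1852 CPM in SI_Con 1 to 4. What sequence was counted under this entry is not given in the sources used here.

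With all 8 libraries, edgeR's quasi-likelihood test called 0 of 20354 genes (0%) at an adjusted p under 0.05, and the smallest adjusted p was 0.159. At an unadjusted p under 0.05 there were 1431 genes higher in SI_EE (7.03%) and 1132 lower (5.56%). DESeq2 called 173 genes, limma-voom called 0, and edgeR called 91 when SI_EE 2 was the library left out. Without SI_EE 1, edgeR called 1 gene of 20718 (0.00483%), and it was higher: Inhba. At an unadjusted p there were then 971 genes higher (4.69%) and 1205 lower (5.82%), DESeq2 called 52 and limma-voom 1. Of the 2563 genes at an unadjusted p under 0.05 with all libraries, 1283 (50.1%) were so without SI_EE 1, which is 59% of the 2176 found there, and 1280 of those had the same sign in both. SI_EE 1 was the highest of the 8 libraries for 1045 of the 2563 (40.8%), beside 24.9% of all genes tested. It was the lowest for 599 (23.4%), beside 25.4% of all. The 2563 were chosen by a comparison in which SI_EE 1 takes part, so these shares are in part set by that choice. The median log2 fold change of all genes was 0.01 in both comparisons.

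**Figure D1:**
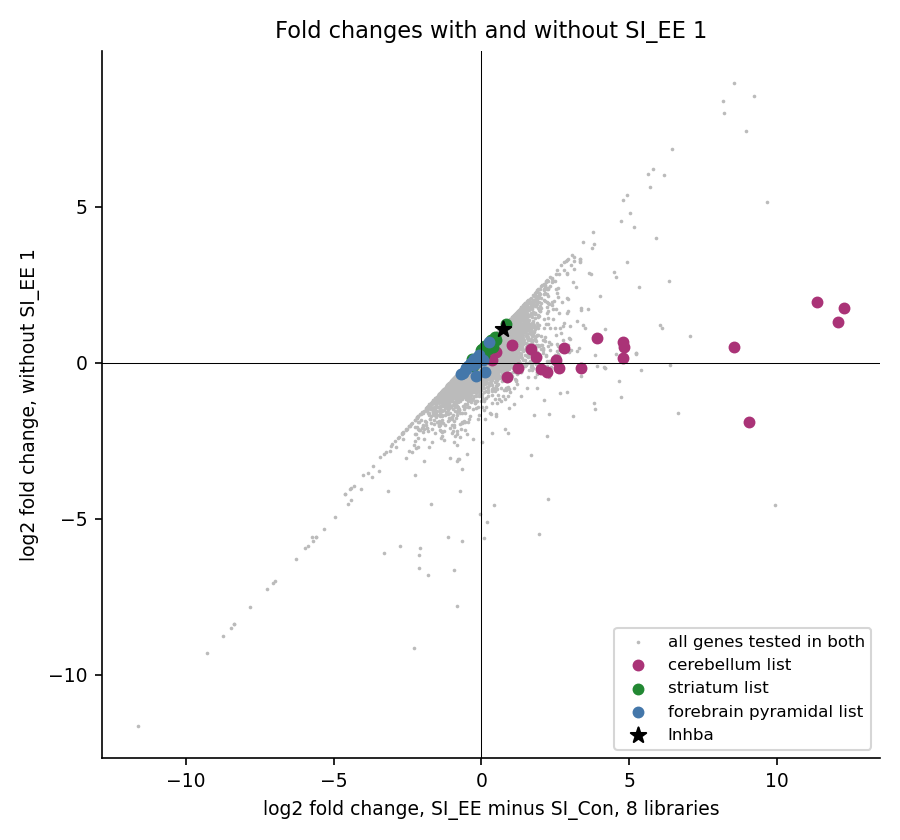
Each point is a gene tested in both comparisons, placed by its log2 fold change (SI_EE minus SI_Con) with all 8 libraries on the x axis and without SI_EE 1 on the y axis. Members of the cerebellum list have a median of 2.70 on the x axis, with the lowest at 0.35, and of 0.26 on the y axis, and Inhba, the star, lies at 0.73 and 1.09.

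Inhba encodes the subunit that pairs with itself to form activin A, a secreted factor of the TGF-beta family that neurons make in response to activity (chromosome 13, 16011851 to 16031621, plus strand, GRCm38). It was at 37.3, 34.6 and 35.0 CPM in SI_EE 2, 3 and 4 and at 14.9, 17.3, 14.7 and 20.4 CPM in SI_Con 1 to 4. SI_EE 1, with 4.34 CPM, was the lowest of the 8, so the groups overlapped with it and did not overlap without it. Without SI_EE 1 Inhba rose, with 35.7 ± 1.45 CPM (SD, n = 3) against 16.8 ± 2.64 (SD, n = 4), a log2 fold change of 1.09 (SE 0.16, edgeR adjusted p = 0.0230). With SI_EE 1 the log2 fold change was 0.73 (SE 0.36, edgeR adjusted p = 0.417). The call held with DESeq2 (adjusted p = 6.67e-06), with limma-voom (0.0269) and with sex as a covariate in edgeR (0.0228). It was lost when only SI_EE and SI_Con libraries entered the edgeR fit (adjusted p = 0.329), with the replicate number as a block (0.112) and without SI_Con 2, SI_Con 3 and the 2 such libraries of other groups (0.0529). Leaving out a further library ended it for SI_EE 2, 3 or 4 and for SI_Con 1, 2 or 3 (edgeR adjusted p from 0.099 to 0.21) and kept it for SI_Con 4 (0.0153). The log2 fold change was between 1.01 and 1.20 in those fits.

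Genes by which neurons respond to activity were examined as 2 lists, immediate early transcription factors and slower effectors. Inhba is a member of the effector list, so the counts, means and medians of that list include it. Among the effectors 19 of 26 measured members had a positive log2 fold change without SI_EE 1 (15 of 26 with it), beside 51.0% of all genes (50.7% with it), and 6 were higher without overlap between groups and 1 lower, where 4.30% and 4.68% of all genes were. Their list mean was 5.96, 5.98 and 5.93 log2 CPM in SI_EE 2, 3 and 4 and 5.73, 5.72, 5.70 and 5.84 in SI_Con 1 to 4. It was 5.04 in SI_EE 1, below all the others, so the groups of list means overlapped only through that library. The median log2 fold change of the effectors was 0.17 without SI_EE 1 and 0.09 with it.

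Homer1, whose short activity-induced form loosens the postsynaptic scaffold, was at 68.7, 400, 480 and 454 CPM in SI_EE 1 to 4 and at 302, 162, 212 and 376 CPM in SI_Con 1 to 4. Bdnf, a neurotrophin released at active synapses, was at 22.6, 39.7, 39.0 and 35.9 CPM in SI_EE and at 25.1, 24.4, 26.9 and 33.2 CPM in SI_Con. Nptx2, a secreted pentraxin that gathers AMPA receptors on interneurons, was at 18.2, 68.2, 69.3 and 54.0 CPM in SI_EE and at 39.1, 51.5, 40.4 and 47.2 CPM in SI_Con. In each of these, SI_EE 2, 3 and 4 lay above all of SI_Con and SI_EE 1 lay below all of it. Without SI_EE 1 the log2 fold changes were 0.76 for Homer1 (SE 0.26), 0.49 for Bdnf (SE 0.18) and 0.53 for Nptx2 (SE 0.21), at edgeR adjusted p = 0.396, 0.398 and 0.416.

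Of the 31 measured immediate early genes, 17 had a positive log2 fold change without SI_EE 1 and 16 with it, and the median was 0.02 and 0.01. Npas4, a neuron-specific factor that recruits inhibitory synapses, was at 8.19, 32, 18.9 and 27.8 CPM in SI_EE 1 to 4 and at 11.8, 15.5, 11.7 and 8.82 CPM in SI_Con 1 to 4 (log2 fold change 1.15 without SI_EE 1, SE 0.40, edgeR adjusted p = 0.396). Egr3 was at 49.7, 331, 348 and 283 CPM in SI_EE and at 184, 171, 155 and 261 CPM in SI_Con (0.74, SE 0.26, edgeR adjusted p = 0.398). Egr2, a zinc finger factor of the same family, was at 4.11, 11, 8.20 and 8.55 CPM in SI_EE and at 3.13, 4.17, 4.03 and 7.59 CPM in SI_Con. For these 3 genes the groups separated once SI_EE 1 was set aside. A further member, Jund, a partner of Fos, then separated the other way, at 91.8, 93.8 and 77.3 CPM in SI_EE 2, 3 and 4 against 99.9, 108, 113 and 107 CPM in SI_Con (log2 fold change −0.28, named after its values were seen). So 3 of 31 were higher without overlap and 1 was lower, beside 4.30% and 4.68% of all genes. Fos, the most used marker of activity, did not separate: it was at 29.6, 32.1, 31.9 and 22.7 CPM in SI_EE and at 14.8, 18.4, 28.9 and 30.6 CPM in SI_Con. Arc, which removes AMPA receptors from synapses, overlapped as well, at 85.0, 366, 286 and 165 CPM in SI_EE and 108, 135, 253 and 321 CPM in SI_Con. The Klf10 log2 fold change, 0.62 without SI_EE 1, also came with overlapping groups, since SI_EE 4 (32.6 CPM) lay just below SI_Con 4 (32.9 CPM). Among the effectors Pim1, a kinase induced by activity and cytokines, was the 1 member that was higher without overlap when all 8 libraries were used, where 2.24% of all genes were. Pim1 was at 8.72, 5.39, 5.29 and 4.73 CPM in SI_EE and 3.36, 1.45, 2.74 and 2.53 CPM in SI_Con (log2 fold change 1.26, SE 0.34, edgeR adjusted p = 0.178). Nrn1, which encodes neuritin, an activity-induced protein of neurite growth, was the 1 effector lower without overlap, with 7 libraries and with 8, at 118, 42.3, 202 and 196 CPM against 205, 290, 259 and 229 CPM (log2 fold change −0.74 without SI_EE 1). It was chosen after its values were seen.

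**Figure D2:**
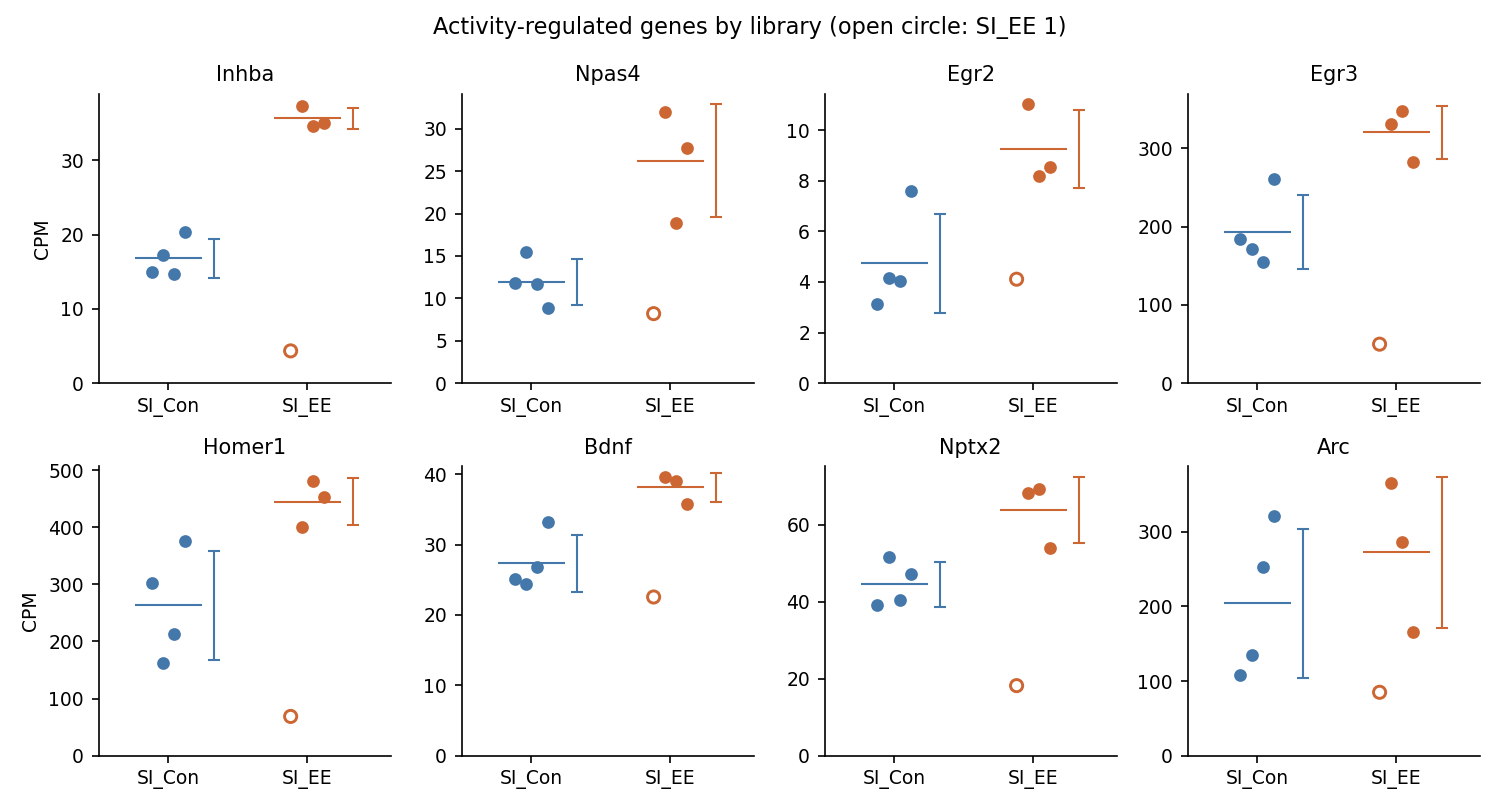
CPM of 8 activity-regulated genes in each library (y axis, from 0), with SI_Con on the left and SI_EE on the right of each panel. Filled circles are libraries, the open circle is SI_EE 1, and lines and bars show the mean and SD of SI_Con (n = 4) and of SI_EE without SI_EE 1 (n = 3). SI_EE 2, 3 and 4 lie above all SI_Con libraries in every panel but that of Arc.

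Activity-regulated promoters are known for the cAMP response element, TGACGTCA, to which CREB binds, and for its half-site TGACG. In the RefSeq promoter windows of GRCm38.p6, which run from 250 bases before to 50 after the start, the half-site (TGACG or, on the other strand, CGTCA; the full element contains both) occurred in 20.8% of all 32851 windows. It occurred in 17 of the 25 immediate early genes with a window (68%) and in 14 of the 20 effectors (70%), beside 32.3% of all measured genes with a window. The full element was in 3 of those 25 and 4 of those 20, beside 3.24% of measured genes with a window and 1.79% of all windows. The windows of Npas4, Egr2 and Homer1 follow, 5′ to 3′ along the gene, with the half-sites in capitals, as examples chosen after their values were seen from the members whose groups separated without SI_EE 1. They lie at chr19:4989922-4990221 (Npas4, minus strand), chr10:67537619-67537918 (Egr2, plus strand, 1 of 3 listed starts) and chr13:93303507-93303806 (Homer1, plus strand).
Npas4: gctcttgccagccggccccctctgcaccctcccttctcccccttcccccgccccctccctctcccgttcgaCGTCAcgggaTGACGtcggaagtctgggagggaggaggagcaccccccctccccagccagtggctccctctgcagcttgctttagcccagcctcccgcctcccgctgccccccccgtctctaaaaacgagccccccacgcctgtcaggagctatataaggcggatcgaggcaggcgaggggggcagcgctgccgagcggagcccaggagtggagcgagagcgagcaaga
Egr2: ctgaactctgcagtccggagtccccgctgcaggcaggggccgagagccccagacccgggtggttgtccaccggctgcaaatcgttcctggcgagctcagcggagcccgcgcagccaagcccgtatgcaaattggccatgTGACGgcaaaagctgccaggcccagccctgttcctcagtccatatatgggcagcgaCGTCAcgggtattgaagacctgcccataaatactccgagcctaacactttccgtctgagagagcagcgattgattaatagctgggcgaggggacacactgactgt
Homer1: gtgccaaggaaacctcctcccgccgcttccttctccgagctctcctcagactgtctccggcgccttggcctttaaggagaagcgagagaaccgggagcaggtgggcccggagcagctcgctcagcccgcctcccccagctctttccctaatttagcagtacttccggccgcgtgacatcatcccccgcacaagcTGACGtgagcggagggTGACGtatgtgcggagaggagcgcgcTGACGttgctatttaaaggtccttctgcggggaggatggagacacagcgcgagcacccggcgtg
Npas4 and Egr2 hold 2 half-sites each and Homer1 holds 3. The window of Inhba, the called gene, held neither form. A match describes the letters and not a bound site.

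Other genes with the smallest p without SI_EE 1 were led by Nipal4, which encodes a membrane protein thought to carry magnesium and which stood in the myelin list. It was at 4.97, 5.45, 6.88 and 5.96 CPM in SI_EE 1 to 4 and at 2.62, 3.86, 3.35 and 3.45 CPM in SI_Con 1 to 4, and the groups did not overlap. Its log2 fold change was 0.81 with all libraries (SE 0.16, edgeR adjusted p = 0.159) and 0.89 without SI_EE 1 (SE 0.16, adjusted p = 0.209). Plcd4, a phospholipase C, was at 23, 18.8, 19.8 and 18.8 CPM against 10.3, 12.5, 12 and 12.1 CPM. Clic4, a chloride intracellular channel protein, was at 125, 107, 151 and 138 CPM against 89.4, 92.3, 83.1 and 94.4 CPM. In all 3 every SI_EE library, SI_EE 1 included, lay above every SI_Con library. The same held for Klhl28, an adaptor-like Kelch protein (log2 fold change 0.56 without SI_EE 1), Plod1, a collagen lysyl hydroxylase (0.52), Trim34a, a tripartite motif protein (1.90), Utp14b, a nucleolar protein for ribosome assembly (1.25), and Ndst4, a heparan sulfate sulfotransferase (1.29). Ndst4 was at 12.2 CPM in SI_EE 1 and at 1.19 to 1.86 CPM in SI_EE 2, 3 and 4, and with all libraries its log2 fold change was 2.80. Rgs20, a regulator of G protein signalling, separated only without SI_EE 1 (13 CPM there, 37.6, 37.5 and 40.7 in SI_EE 2, 3 and 4, and 25.2 to 29.0 in SI_Con).

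On the lower side, Cd34, a sialomucin of endothelial and progenitor cells, was at 31.3, 85.1, 69.2 and 77.0 CPM in SI_EE 1 to 4 and at 102, 126, 127 and 105 CPM in SI_Con 1 to 4. Every SI_EE library lay below every SI_Con library (log2 fold change −0.56 without SI_EE 1, SE 0.12, edgeR adjusted p = 0.213, and −0.81 with it). Actr3b, a subunit of the actin-branching Arp2/3 complex, was at 58.8, 89.1, 90.5 and 84.0 CPM against 111, 123, 138 and 108 CPM (−0.44 without SI_EE 1). Mtfp1, an inner-membrane protein of mitochondrial fission (−0.52), Nt5c3, a pyrimidine nucleotidase (−0.49), Gdap1l1 (−0.32), Eid1, a small inhibitor of differentiation and p300 (−0.39), and Vasn, a TGF-beta-binding membrane protein (−0.64), also did not overlap with all 8 libraries. Mboat2, a lysophospholipid acyltransferase, was at 15.3, 22.9, 27.1 and 23.9 CPM against 55.2, 50.9, 23.2 and 55.3 CPM, so that SI_Con 3 lay within SI_EE and the other 3 SI_Con libraries far above it (−0.90 without SI_EE 1). Ctsf, a lysosomal cysteine protease, and Particl, a noncoding RNA at the Mat2a locus, were lower in SI_EE 2, 3 and 4 and highest of all in SI_EE 1. Ctsf stood at 31.5, 31.7 and 32.3 CPM there against 38.7 to 45.5 in SI_Con, and at 62.0 CPM in SI_EE 1. No gene of this paragraph passed the threshold in the main edgeR fits, with SI_EE 1 or without it. Under the alternative fits Mboat2 was called in 5 of 21 with all libraries and in 4 of 20 without SI_EE 1. The other genes of this paragraph were called in at most 2.

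Chaperones of the cytosol and endoplasmic reticulum fold nascent proteins and are induced by heat or by unfolded protein. Without SI_EE 1, 31 of 33 measured members of this list had a positive log2 fold change, with a median of 0.22, and 9 were at an unadjusted p under 0.05 and higher, where 4.69% of all genes were. With SI_EE 1 it was 24 of 33, with a median of 0.15. List means were 6.22, 6.70, 6.67 and 6.41 log2 CPM in SI_EE 1 to 4 and 6.23, 6.32, 6.43 and 6.49 in SI_Con 1 to 4, so SI_EE 2 and 3 were the high libraries and the groups overlapped. Hyou1, a chaperone of the endoplasmic reticulum, was at 44.2, 82.5, 93.1 and 85.6 CPM in SI_EE and at 66.1, 50.3, 42.1 and 75.6 CPM in SI_Con. Hsp90b1, the HSP90 of the same compartment, was at 333, 415, 406 and 354 CPM against 290, 304, 308 and 323 CPM, with every SI_EE library above every SI_Con library (log2 fold change 0.30 with all libraries, SE 0.14, edgeR adjusted p = 0.382, and 0.37 without SI_EE 1). The log2 fold changes of Pdia4, a protein disulfide isomerase, and Chordc1, an HSP90 co-chaperone, were 0.44 and 0.45 without SI_EE 1, with overlapping groups.

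The endoplasmic reticulum stress element was sought on both strands as CCAAT and CCACG with 9 bases between them. It was found in 6 of the 27 chaperone genes with a RefSeq window (22.2%), beside 0.167% of measured genes with a window and 0.119% of all windows. The window of Hsp90b1 (chr10:86705395-86705694, GRCm38.p6, minus strand) is shown because Hsp90b1 was a chaperone whose groups separated with all libraries, and it holds 2 matches, in capitals.
Hsp90b1: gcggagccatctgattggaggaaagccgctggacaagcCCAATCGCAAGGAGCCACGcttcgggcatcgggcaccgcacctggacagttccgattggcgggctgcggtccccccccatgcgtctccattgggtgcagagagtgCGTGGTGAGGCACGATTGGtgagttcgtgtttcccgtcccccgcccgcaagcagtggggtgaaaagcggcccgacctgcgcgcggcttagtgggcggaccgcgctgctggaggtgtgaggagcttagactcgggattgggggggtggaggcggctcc
The match says nothing of whether the element was in use in these samples.

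Oligodendrocytes wrap axons in myelin. Of 30 measured genes of myelin and mature oligodendrocytes, 26 had a positive log2 fold change without SI_EE 1 and 24 with it, with medians of 0.35 and 0.25, and 8 did not overlap between the groups without SI_EE 1, where 4.30% of all genes were so and higher. The list mean was 6.09, 6.19, 6.53 and 6.60 log2 CPM in SI_EE 1 to 4 and 6.21, 6.26, 5.85 and 6.14 in SI_Con 1 to 4. SI_EE 3 and 4 were above the SI_Con libraries, SI_EE 1 and 2 were within their range, and SI_Con 3 was the lowest. Trf, the iron carrier that mature oligodendrocytes make, was at 369, 316, 391 and 407 CPM in SI_EE and at 254, 267, 190 and 237 CPM in SI_Con, with no overlap (log2 fold change 0.65, SE 0.15, edgeR adjusted p = 0.161). Plekhh1 was at 45.0, 52.0, 65.2 and 68.2 CPM against 43.2, 38.0, 28.1 and 43.9 CPM (0.59 with all libraries, 0.70 without SI_EE 1). Fa2h, which makes the hydroxylated lipids of myelin, separated only without SI_EE 1 (0.53). Mbp, myelin basic protein, did not follow them: it was at 424, 508, 598 and 623 CPM in SI_EE and 547, 582, 564 and 488 CPM in SI_Con (−0.02 with all libraries and 0.09 without SI_EE 1, edgeR adjusted p = 0.978 and 0.866).

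Precursors and newly forming oligodendrocytes gave 14 of 18 positive without SI_EE 1 (median 0.18) and 10 of 18 with it (0.03). Vcan, the proteoglycan versican of precursors, was at 19.8, 19.2, 26.6 and 27.1 CPM against 14.8, 13.2, 17.8 and 18.3 CPM, without overlap (log2 fold change 0.53, SE 0.18, edgeR adjusted p = 0.245). Cacng4, a subunit that escorts AMPA receptors, was at 31.5, 44.4, 42.9 and 48.7 CPM against 29.8, 29.0, 31.4 and 32.9 CPM, and Sox10, the lineage's transcription factor, at 31.6, 35.9, 55.4 and 50.1 CPM against 38.9, 38.2, 22.1 and 34.3 CPM. Cacng4 separated once SI_EE 1 was left out, and Sox10 did not, since SI_EE 2 lay among SI_Con. Adamts4, a protease of the extracellular matrix that oligodendrocytes express, was at 31.9, 19.9, 36.8 and 35.9 CPM against 24.8, 17.3, 10.2 and 20.1 CPM, again with SI_EE 2 in the range of SI_Con.

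Interferon-stimulated genes are the antiviral programme that type I interferon switches on, and they are also seen in a fraction of microglia near plaques. Of 34 measured members 32 had a positive log2 fold change without SI_EE 1 and 31 with it (medians 0.48 and 0.51), and 9 and 7 were at an unadjusted p under 0.05 and higher, beside 4.69% and 7.03% of all genes. None were called by edgeR, and 1 was higher without overlap when SI_EE 1 was left out, beside 4.30% of all genes. The list mean was 2.10, 1.69, 2.21 and 2.88 log2 CPM in SI_EE 1 to 4 and 1.94, 2.26, 1.22 and 1.43 in SI_Con 1 to 4. SI_EE 4, the female library of SI_EE, was the highest and SI_Con 3 and 4, both male, the lowest. SI_EE 1, 2 and 3 lay within the range of SI_Con. Without SI_EE 4 as well as SI_EE 1, 23 of 34 were positive and the median was 0.18. Ifit3, a cytosolic antiviral effector, was at 21.1, 9.89, 15.4 and 30.5 CPM against 12.6, 11.2, 5.27 and 8.39 CPM (log2 fold change 0.99 without SI_EE 1, SE 0.39, edgeR adjusted p = 0.425). Parp14, an ADP-ribosyltransferase, was at 4.97, 5.56, 6.91 and 9.10 CPM against 5.72, 3.51, 3.06 and 3.10 CPM. In both the groups overlapped. Ifit3b is a near-identical neighbour of Ifit3, so the counting could have split their reads.

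The interferon-stimulated response element was sought on both strands as GAAA and GAAA with 2 bases between them. It was found in 12 of the 23 listed genes with a RefSeq window (52.2%), beside 3.74% of measured genes with a window and 3.44% of all windows. The window of Ifit3 (chr19:34583279-34583578, GRCm38.p6, plus strand) holds 2 matches, in capitals, and is shown because Ifit3 was among the members with the smallest p.
Ifit3: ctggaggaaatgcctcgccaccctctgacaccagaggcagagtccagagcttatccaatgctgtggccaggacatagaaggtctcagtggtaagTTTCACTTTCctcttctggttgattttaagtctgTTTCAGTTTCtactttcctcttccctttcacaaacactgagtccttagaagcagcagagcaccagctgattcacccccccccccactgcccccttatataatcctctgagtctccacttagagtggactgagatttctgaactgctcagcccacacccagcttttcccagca

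The genes of plaque-associated microglia overlapped between the groups. EdgeR found 0 of 24 at an unadjusted p under 0.05, with SI_EE 1 and without it, beside 12.6% and 10.5% of all genes. Cst7, which plaque-associated microglia switch on, was at 0.252, 0.245, 2.88 and 5.68 CPM in SI_EE 1 to 4 and at 0.345, 2.40, 0.448 and 0.0862 CPM in SI_Con 1 to 4. Trem2, their lipid receptor, was at 4.46, 7.05, 11.8 and 15.4 CPM against 7.30, 13.1, 6.27 and 5.69 CPM. SI_EE 3, SI_EE 4 and SI_Con 2 were the high libraries for both genes. The plaque-associated list was positive for 18 of 24 members without SI_EE 1 (median 0.19) and for 12 of 24 when SI_EE 4 was left out as well (0.01). Homeostatic microglial genes were positive for 12 of 15 members without SI_EE 1 (median 0.18) and 8 of 15 with it (0.04). Among them P2ry12, a purine receptor of resting microglia, was at 13.5, 14.1, 23.4 and 17.6 CPM against 31.9, 31.3, 10.9 and 20.2 CPM, with SI_Con 1 and SI_Con 2 above the rest. C4b, a complement component made by glia, was at 18.7, 21.1, 40.8 and 60.9 CPM against 15.6, 23.6, 23.5 and 12.7 CPM (log2 fold change 1.13 without SI_EE 1, SE 0.46, edgeR adjusted p = 0.439). Complement genes were positive for 12 of 14 members without SI_EE 1 and for 8 of 14 without SI_EE 4 too. Cd55, which shields cells from complement, was at 4.66, 5.05 and 5.17 CPM in SI_EE 2, 3 and 4, at 2.07 CPM in SI_EE 1 and at 2.59 to 4.03 CPM in SI_Con. Antigen presentation genes were positive for 6 of 15 without SI_EE 1 and 8 of 15 with it.

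Gfap, the intermediate filament of reactive astrocytes, was at 145, 88.5, 224 and 371 CPM in SI_EE 1 to 4 and at 99.9, 163, 132 and 78.3 CPM in SI_Con 1 to 4 (log2 fold change 0.96 without SI_EE 1, SE 0.49, edgeR adjusted p = 0.497). SI_EE 4 again held the highest value, and SI_EE 1 and SI_EE 2 lay within SI_Con. As SI_EE 4 is the 1 female library of SI_EE, its sex and its other traits cannot be told apart within that group. Aqp4, the water channel of astrocyte endfeet, was at 239 CPM in SI_EE 1 and at 63.7, 107 and 127 CPM in SI_EE 2, 3 and 4, against 53.9 to 81.9 CPM in SI_Con. Its log2 fold change was 0.99 with SI_EE 1 and 0.56 without it, and that of Slc1a3, a glutamate transporter that cerebellar glia express strongly, was 0.53 and 0.22. The homeostatic astrocyte list had a median of 0.18 with SI_EE 1 and 0.07 without it, and the reactive list 0.40 and 0.23. Sox9, the astrocyte transcription factor, was at 32.2, 14.9, 29.8 and 30.6 CPM against 20.6, 24.5, 12 and 11.8 CPM, with SI_EE 2 low in its group. The part of the cerebellar transcripts of SI_EE 1 in the astrocyte values was not tested beyond leaving that library out.

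**Figure D3:**
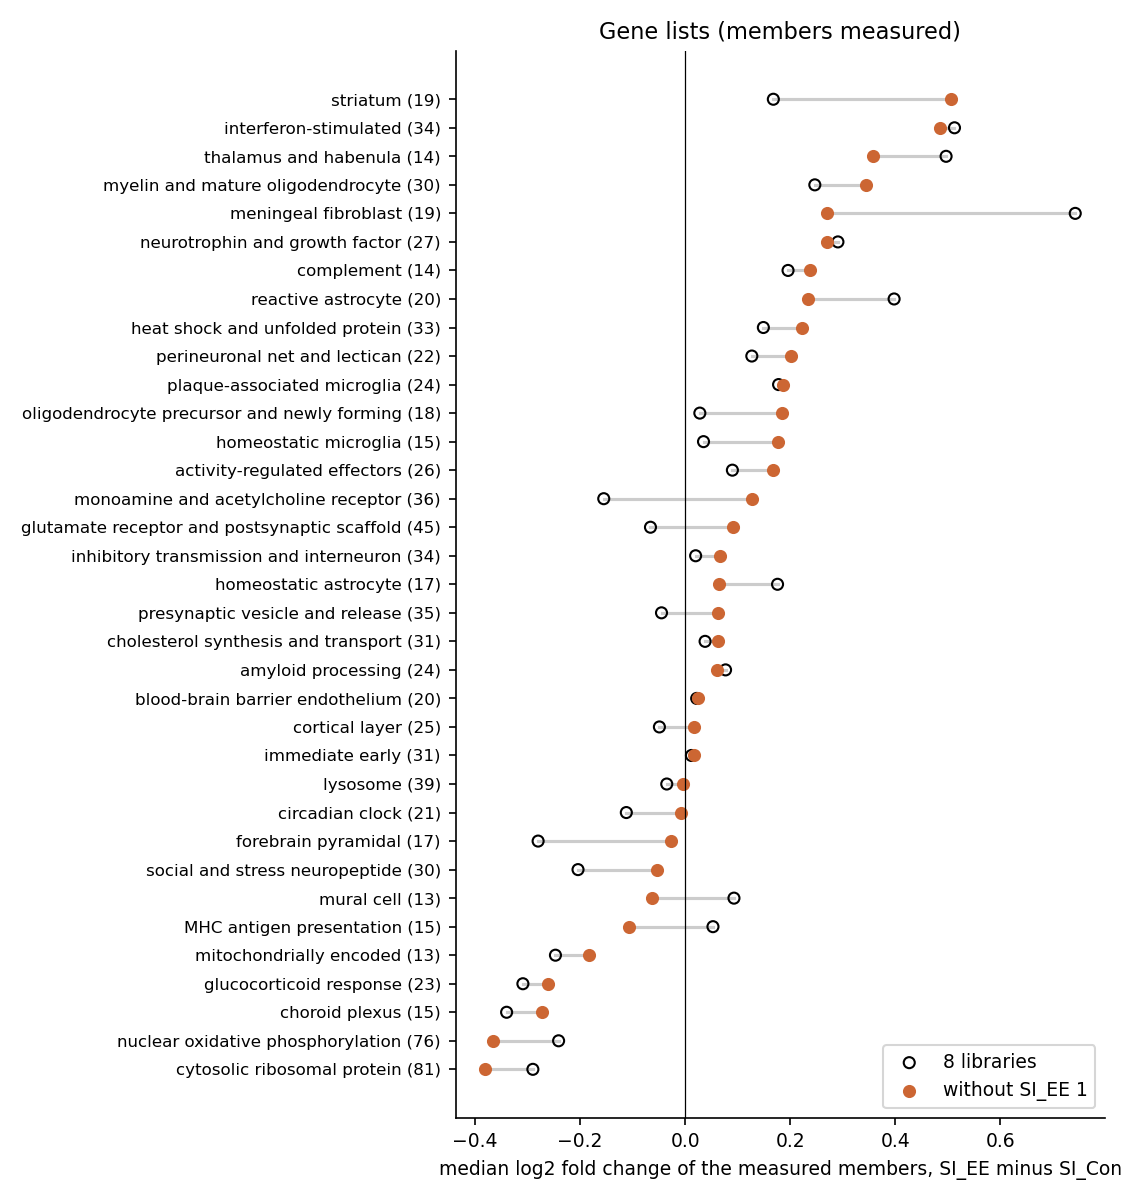
Median log2 fold change (x axis, SI_EE minus SI_Con) of 35 gene lists, with the number of measured members in brackets; open circles use 8 libraries and filled circles leave out SI_EE 1. The cerebellum, blood cell and olfactory bulb lists are not drawn. Ribosomal protein, nuclear oxidative phosphorylation and glucocorticoid response genes lie on the negative side in both comparisons, and striatum, interferon-stimulated and myelin genes on the positive side.

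Glucocorticoid-responsive genes report the action of the stress hormone corticosterone. Of 23 measured members 17 had a negative log2 fold change without SI_EE 1 and 19 with it, beside 49.0% and 49.3% of all genes, with medians of −0.26 and −0.31. The list mean was 5.09, 5.42, 5.42 and 4.99 log2 CPM in SI_EE 1 to 4 and 5.11, 4.97, 6.19 and 5.66 in SI_Con 1 to 4. The difference lay in SI_Con 3 and SI_Con 4, which were the highest of the 8, while SI_Con 1 was within the range of SI_EE and SI_Con 2 was the lowest of the 8. Sgk1, a kinase that corticosterone induces, was at 80.4, 106, 80.8 and 60.01 CPM in SI_EE and at 102, 73.2, 226 and 191 CPM in SI_Con (log2 fold change −0.84 without SI_EE 1, SE 0.30, edgeR adjusted p = 0.398). Arrdc2, an arrestin-domain protein, was at 11.1, 13.7, 10.6 and 7.92 CPM against 9.05, 12, 54.6 and 21.6 CPM, and Nfkbia, the inhibitor of NF-kappa B, at 18.3, 17.2, 15.6 and 13.9 CPM against 17.4, 14.2, 50.8 and 30.9 CPM. Ddit4, a stress-induced inhibitor of mTOR, and Per1, a clock gene with glucocorticoid response elements, had the same 2 high libraries. Without SI_Con 3 and SI_EE 1 the median of the list was −0.03, with 10 of 23 positive, and with SI_EE 1 kept it was 0.00 (−0.004), with 11 of 23. SI_Con 3 and 4 are the 2 male libraries of SI_Con, and 3 of the SI_EE libraries are male as well. Clock genes as a whole had a median of −0.01 without SI_EE 1 and −0.11 with it.

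Genes of the respiratory chain and of the ribosome were mostly lower in SI_EE. The 13 protein-coding genes of mitochondrial DNA had 13 negative log2 fold changes with all libraries and 12 without SI_EE 1 (medians −0.25 and −0.18), and 5 did not overlap between groups in either comparison, where 2.40% and 4.68% of all genes were so and lower. Their list mean was 11.37, 11.37, 11.44 and 11.47 log2 CPM in SI_EE 1 to 4 and 11.53, 11.64, 11.84 and 11.47 in SI_Con 1 to 4, and SI_EE 4 and SI_Con 4 held nearly the same value. mt-Nd1, a subunit of complex I, was at 6613, 6513, 6327 and 6739 CPM against 7560, 8372, 9780 and 7292 CPM, with every SI_EE library below every SI_Con library (−0.33 with all libraries, SE 0.11, edgeR adjusted p = 0.210). mt-Co1, the catalytic subunit of complex IV, did not overlap either (−0.28 with all libraries, −0.25 without SI_EE 1).

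Of 76 nuclear genes of oxidative phosphorylation 76 were negative without SI_EE 1 and 74 with it (medians −0.36 and −0.24), and of 81 cytosolic ribosomal protein genes 81 and 80 were (medians −0.38 and −0.29). Unadjusted p was under 0.05 and lower for 36 of the first and 38 of the second without SI_EE 1, where 5.82% of all genes were, and edgeR called none. Ndufa4, a subunit of the electron transport chain, was at 96.0, 76.9, 60.6 and 62.7 CPM in SI_EE 1 to 4 and at 77.5, 108, 125 and 98.0 CPM in SI_Con 1 to 4. Rps27a, which encodes ubiquitin fused to a ribosomal protein, was at 81.8, 49.98, 43.3 and 49.8 CPM against 64.2, 98.4, 102 and 51.8 CPM. For both, SI_EE 2, 3 and 4 lay below SI_Con, and SI_EE 1 lay within it. Ndufv2 and Rpl3 showed the same order.

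These are short genes, with a median exonic length of 1737 bases for the nuclear respiratory list and 1770 for the ribosomal list, beside 3643 over all tested genes, and the groups differed in how length related to level. Without SI_EE 1 the median log2 fold change was −0.16 in the shortest of 4 length classes of genes and 0.12 in the longest, and with SI_EE 1 it was −0.11 and 0.08. The list mean of the nuclear respiratory genes was 6.77 and 6.91 log2 CPM in SI_Con 2 and SI_Con 3, where long genes read low, and 6.30 and 6.43 in SI_Con 1 and SI_Con 4. In SI_EE it was 6.66, 6.42, 6.19 and 6.17. With each library's trend on length removed, the medians without SI_EE 1 were −0.25 for the respiratory and −0.28 for the ribosomal genes. Without SI_Con 2, SI_Con 3 and the 2 such libraries of other groups they were −0.10 and −0.07 there, and 0.01 for both lists with SI_EE 1 kept in. The mitochondrially encoded genes, with a median length of 784 bases, were at −0.12 and, without SI_EE 1, −0.07 in the same fits. With the length trend removed they were at −0.11 with SI_EE 1 and at −0.04 without it, where 4 of 13 were positive and the median of all genes was −0.01.

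**Figure D4:**
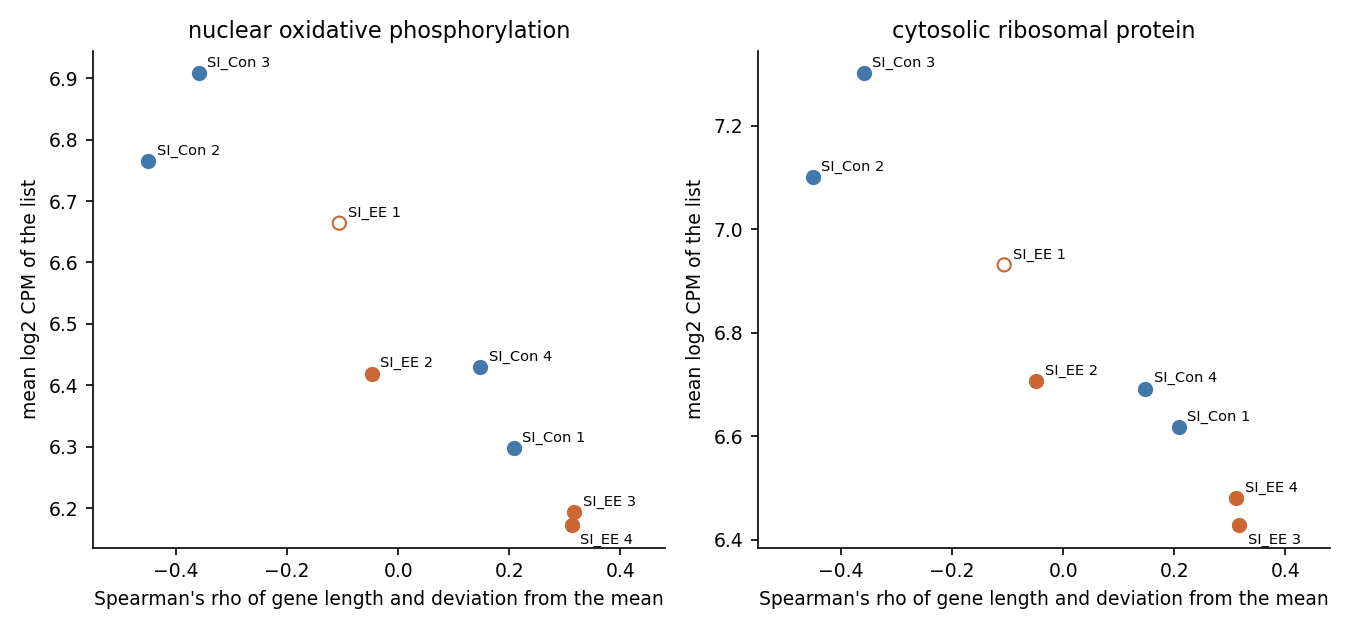
Mean log2 CPM of the nuclear oxidative phosphorylation list and of the cytosolic ribosomal protein list (y axes) against Spearman's rho across genes between exonic length and the deviation of a library from the mean (x axes), 1 point per library. SI_Con is blue, SI_EE is orange and SI_EE 1 is open. SI_Con 2 and SI_Con 3, at −0.45 and −0.36, hold the highest list means, and SI_EE 3 and SI_EE 4, at 0.32 and 0.31, the lowest.

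Neuronal markers were read for cell composition. Fezf2, which specifies layer 5 projection neurons, was at 7.44, 32.6, 38.8 and 30.8 CPM in SI_EE 1 to 4 and at 39.5, 41.3, 42.9 and 49.5 CPM in SI_Con 1 to 4, without overlap (log2 fold change −0.66 with all libraries and −0.34 without SI_EE 1, SE 0.15, edgeR adjusted p = 0.460). Ntng2, a netrin-G of excitatory axons, did not overlap either, at 8.07, 11.4, 12.5 and 12.2 CPM against 16.9, 16.5, 15.2 and 17.2 CPM. They were the 2 of 25 cortical layer genes that were lower without overlap, beside 2.40% of all genes with 8 libraries and 4.68% without SI_EE 1. The list was positive for 13 of 25 without SI_EE 1 (median 0.02) and 11 of 25 with it (−0.05). The forebrain pyramidal list as a whole had a median of −0.03 without SI_EE 1 and −0.28 with it, and its mean was 5.96 log2 CPM in SI_EE 1 and 7.56 to 7.70 in SI_EE 2, 3 and 4. Neurod2, a pyramidal transcription factor that cerebellar granule cells share, was highest in SI_EE 1, at 126 CPM, and at 59.5 to 76.8 CPM in SI_EE 2, 3 and 4 against 91.5 to 97.8 CPM in SI_Con. Pvalb, the calcium buffer of fast-spiking interneurons and of Purkinje cells, changed sign with SI_EE 1: it was at 502 CPM there, at 66.2 to 78.3 CPM in SI_EE 2, 3 and 4 and at 81.2 to 131 CPM in SI_Con (0.87 with SI_EE 1 and −0.45 without it). Gabrd, a GABA receptor subunit that granule cells share, did so too (0.14 and −0.25). The inhibitory transmission and interneuron list was positive for 21 of 34 members without SI_EE 1 (median 0.07) and 18 of 34 with it (0.02). Without SI_EE 1, Pvalb and Gabrd were the 2 of 34 lower without overlap and 1 of 34 was higher, beside 4.68% and 4.30% of all genes. These counts are near those shares. For synaptic genes, the receptor and scaffold list was positive for 31 of 45 members without SI_EE 1 and 20 of 45 with it, and the presynaptic list for 22 of 35 and 15 of 35. Nrxn2, a presynaptic adhesion molecule, was at 340, 295, 308 and 324 CPM against 231, 220, 127 and 288 CPM, without overlap (0.55, SE 0.22, edgeR adjusted p = 0.319). Rab3a, a GTPase of synaptic vesicles, was at 404, 414, 359 and 357 CPM against 424, 571, 572 and 403 CPM, with SI_Con 2 and SI_Con 3 high and the groups overlapping.

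Striatal genes varied across the 8 libraries. Pde10a, a phosphodiesterase of striatal projection neurons, was at 16.5, 336, 138 and 496 CPM in SI_EE 1 to 4 and at 168, 109, 96.7 and 176 CPM in SI_Con 1 to 4. Drd2, the D2 dopamine receptor, was at 6.25, 46.7, 32.9 and 46.2 CPM against 16.1, 15.3, 31.3 and 32.4 CPM. SI_EE 2 and SI_EE 4 were the highest for both and SI_EE 1 was the lowest. Of 19 listed genes 17 were positive without SI_EE 1 (median 0.51), and the summed level was 1549 to 2307 CPM in SI_EE 2, 3 and 4, 450 CPM in SI_EE 1 and 1052 to 1861 CPM in SI_Con. Thalamus and habenula genes were positive for 12 of 14 members both without SI_EE 1 (median 0.36) and with it (0.50), beside 51.0% and 50.7% of all genes. Their list mean was 4.63 log2 CPM in SI_EE 1, 2.66 to 3.98 in SI_EE 2, 3 and 4 and 2.67 to 3.41 in SI_Con, so the groups overlapped. The part of striatal or thalamic tissue in the other results was not tested.

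**Figure D5:**
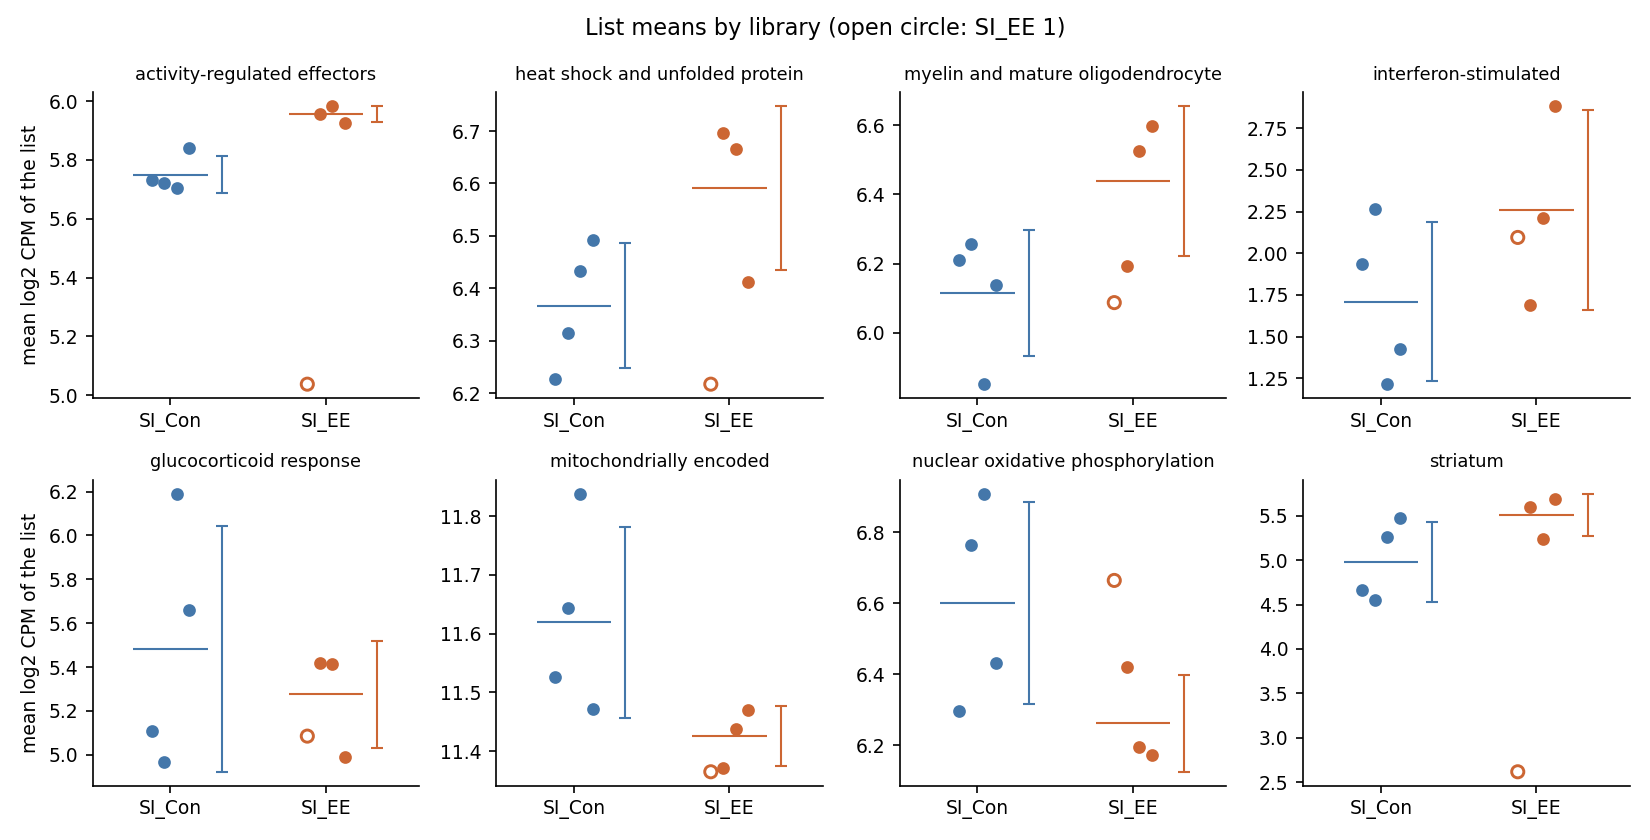
Mean log2 CPM of 8 gene lists in each library (y axes, which do not start at 0), with SI_Con on the left and SI_EE on the right of each panel. Filled circles are libraries, the open circle is SI_EE 1, and lines and bars show the mean and SD of SI_Con (n = 4) and of SI_EE without SI_EE 1 (n = 3). The activity-regulated effectors separate without SI_EE 1, and the mitochondrially encoded genes lie lower in SI_EE.

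The amyloid-processing list was near the median of all genes, at 0.06 without SI_EE 1 and 0.08 with it, with 17 and 14 of 24 positive. Aph1b, a subunit of gamma-secretase, was at 35.9, 40.3, 40.2 and 36.6 CPM in SI_EE 1 to 4 and at 31.5, 29.7, 28.4 and 33.9 CPM in SI_Con 1 to 4, and did not overlap (log2 fold change 0.31, SE 0.09, edgeR adjusted p = 0.202). Mouse App was at −0.07 with SI_EE 1 and 0.12 without it, and Thy1, whose promoter drives the transgenes, at −0.22 and 0.02. Lysosomal genes had medians of −0.04 and −0.01 (8 and 7 libraries), with 5 of 39 lower without overlap when SI_EE 1 was left out, where 4.68% of all genes were. Glb1, the lysosomal beta-galactosidase, was at 15.2, 20.1, 16.5 and 19.98 CPM against 24.4, 22.8, 22.9 and 23.4 CPM, without overlap (−0.38, SE 0.12, edgeR adjusted p = 0.202). Smpd1, acid sphingomyelinase, was at 92.3, 97.4, 97.5 and 108 CPM against 110, 121, 117 and 116 CPM, also without overlap. Lipa, the acid lipase, went the other way once SI_EE 1 was set aside, at 19.6, 20.7 and 21.7 CPM against 15.2 to 18.1 CPM.

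Among growth factors and their receptors 19 of 27 were positive without SI_EE 1 and 20 with it (medians 0.27 and 0.29). Nrtn, neurturin, a ligand of the GDNF family, was at 0.580, 0.953, 0.873 and 0.546 CPM in SI_EE 1 to 4 and at 1.87, 1.35, 2.13 and 1.78 CPM in SI_Con 1 to 4, without overlap (log2 fold change −1.27, SE 0.38, edgeR adjusted p = 0.202). Ntrk3, the receptor of neurotrophin 3, was at 195, 198, 245 and 238 CPM against 205, 138, 141 and 193 CPM, where SI_Con 1 lay within SI_EE. Perineuronal net genes had a median of 0.20 without SI_EE 1 and 0.13 with it, and Chst11, a chondroitin sulfotransferase, was at 60.1, 67.3 and 66.5 CPM in SI_EE 2, 3 and 4 against 39.7 to 57.9 CPM in SI_Con and 37.7 CPM in SI_EE 1. Cholesterol genes had a median of 0.06 and 0.04, with Msmo1, a sterol oxidase, at 82.5, 100 and 87.4 CPM in SI_EE 2, 3 and 4, 49.97 CPM in SI_EE 1 and 63.2 to 74.7 CPM in SI_Con. Monoamine and acetylcholine receptors were positive for 26 of 36 members without SI_EE 1 and for 15 of 35 with it, and neuropeptide genes for 13 of 30 and 11 of 29.

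Vessel and border tissues were read as neighbours of the cortex. Endothelial genes had a median of 0.02 in both comparisons. Within them Slco1a4, an organic anion transporter of the blood-brain barrier, was at 39.1, 41.2 and 50.5 CPM in SI_EE 2, 3 and 4, 62.0 CPM in SI_EE 1 and 53.7 to 61.5 CPM in SI_Con (log2 fold change −0.39 without SI_EE 1). Mfsd2a, the lipid transporter of the same barrier, was at 13.3, 17.6, 18.8 and 12.4 CPM against 18, 15.7, 36.2 and 25.7 CPM, with SI_Con 3 and 4 high as in the glucocorticoid list. Meningeal genes had a median of 0.74 with SI_EE 1 and 0.27 without it, and their summed level was 495 to 612 CPM in SI_EE 2, 3 and 4, 1221 CPM in SI_EE 1 and 457 to 1174 CPM in SI_Con. Col3a1, a fibrillar collagen, was at 3.88, 1.17, 1.27 and 2.29 CPM against 0.747, 1.03, 0.580 and 0.604 CPM. Ttr, the choroid plexus marker, was at 69.2, 3.05, 522 and 14.2 CPM in SI_EE 1 to 4 and at 19.3, 29.6, 12 and 1013 CPM in SI_Con 1 to 4, so 1 library of each group was high. The blood cell list had the largest median of all lists without SI_EE 1, 1.95, and was at 1.94 with it, with 5 of 7 positive in both. Hba-a1, an alpha globin of red cells, was at 7.18, 14.1, 6.43 and 0.410 CPM in SI_EE 1 to 4 and at 0.977, 1.64, 1.63 and 3.08 CPM in SI_Con 1 to 4 (log2 fold change 1.95 without SI_EE 1, edgeR adjusted p = 0.509). SI_EE 1, 2 and 3 were high and SI_EE 4 was the lowest of the 8. Its copy Hba-a2 is near-identical, so the counting could have split their reads. The part of these tissues in the results was not tested.

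GH_EE and GH_Con are the 2 groups of 4 that differ in enrichment without the isolation label, and what GH stands for is not given in the sources used here. Inhba was at 22.6 ± 2.81 CPM in GH_EE and 23.2 ± 1.68 in GH_Con (SD, n = 4), between the values of SI_Con and of SI_EE without SI_EE 1. The difference of the 2 enrichment effects was 1.13 on the log2 scale without SI_EE 1 (edgeR adjusted p = 0.445) and 0.77 with it (0.769). For Trf, at 320 ± 53.8 CPM in GH_EE and 389 ± 36.4 in GH_Con, the difference of effects was 0.93 with all libraries (edgeR adjusted p = 0.392). Egr2 was at 12.1 ± 2.52 CPM in GH_EE and 4.06 ± 2.05 in GH_Con, and its 2 effects differed by −0.60 without SI_EE 1 (edgeR adjusted p = 0.927). mt-Nd1 was at 6687 ± 488 CPM in GH_EE and 7973 ± 274 in GH_Con, and the difference of effects was −0.08 (edgeR adjusted p = 0.932). Across all genes edgeR called 0 of 20354 (0%) for this difference, with 1576 at an unadjusted p under 0.05 (7.74%), and 0 of 20718 without SI_EE 1, with 1322 (6.38%). DESeq2 called 29 with all libraries.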

How the data were processed

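RNA was sequenced from 24 libraries in 6 groups of 4. The authors deposited a table of raw read counts per gene, with 56750 entries, made on mm10 per the submitters' processing notes. For the aligner, the counter, the annotation and strandedness there is no entry in the sources used here, so reads of overlapping or antisense genes cannot be told apart. Every column was matched to its library by title. Counts were tested as deposited with edgeR 4.0.16 (R 4.3.3): TMM scaling, filterByExpr by group, a robust quasi-likelihood fit of all 24 libraries with 1 term per group, and Benjamini-Hochberg adjustment over all genes (threshold 0.05). The fit was repeated without SI_EE 1. TMM-scaled totals gave the CPM values, to which a prior count of 2 was added for log2 values. Depth, 33683587 to 51274917 counts per library, limits what low genes can show. Replicates differed by more than sampling noise (chi-square per degree of freedom from 28.9 to 228), so none was counted as a duplicate.

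Alternatives used DESeq2 1.42.0, limma 3.58.1 with voom, sva 3.50.0, other scalings and filters, sex, gene length, the replicate block and left-out libraries. The fits were tested on simulated counts with known changes in SI_EE, which held no cerebellar library and no trend on gene length. There edgeR recovered 69% of 2-fold and 90.9% of 4-fold changes with 8 libraries, and 61% and 84% without SI_EE 1. Outliers within a group were sought on log2(CPM + 0.05). Named genes were the called genes, the 10 rises and falls of smallest p without SI_EE 1 and the 5 of each with it (mean CPM of at least 1), up to 4 per list by p, up to 5 in each direction that moved most with SI_EE 1, and a set of standard markers; the text gives a part of them. The comparison, the genes and the 38 lists were chosen with earlier results of these data known, so lists are described by counts and medians only. Gene positions and lengths came from GENCODE M21 (GRCm38) and promoter windows from RefSeq (GRCm38.p6).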

Additional observations from a re-analysis of the deposited data

Results flagged for a closer look

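Within each group of 4 the gap between an extreme library and its neighbour was divided by the range and set against the critical value of Dixon's test. Over 256 groups of values, of genes named above and of the lists, 25 passed it. Chance alone flags about 1 in 20 groups of values that were not chosen by their levels. Many of these genes were chosen by their p without SI_EE 1 or by how far they moved with it, so that rate does not apply to them. SI_EE 1 was the extreme library in 17 of the 25.

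SI_EE 1 stood low for Inhba (ratio 0.965), Egr3 (0.893), Homer1 (0.906), Rgs20 (0.929), Hyou1 (0.837), Cd55 (0.887), Fezf2 (0.86) and mouse App (0.917). It stood high for Ctsf (0.962), Pvalb (0.917) and Gabrd (0.936). Among list means it stood low for activity-regulated effectors (0.942), social and stress neuropeptides (0.87), cortical layers (0.879), striatum (0.854) and forebrain pyramidal neurons (0.921), and high for cerebellum (0.925).

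Of the other libraries, SI_EE 2 stood low for Sox9 (0.899) and SI_EE 4 low for Per1 (0.859). In SI_Con, library 2 stood low for Ctsf (0.833), library 3 low for Mboat2 (0.905) and library 1 low for Cd55 (0.915). SI_Con 2 stood high for plaque-associated microglia (0.893), SI_Con 3 low for inhibitory transmission (0.869) and SI_Con 4 high for choroid plexus (0.916).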

How the results depend on the processing

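With all 8 libraries, the 0 genes called became 173 with DESeq2, 2 with the length trend removed, 1 without the libraries in which long genes read low (SI_Con 2, SI_Con 3, GH_Con 2 and SI_WT 4), 4 with surrogate variables and 0 to 91 when libraries were left out in turn (91 without SI_EE 2). Without SI_EE 1 the 1 called gene became 52 with DESeq2, 3 without the libraries in which long genes read low, 12 with surrogate variables, 0 with SI_EE and SI_Con libraries only, 0 with the replicate block and 0 to 2 when a further library was left out. Same-numbered libraries correlated at −0.221 to 0.0538 and differently numbered ones at −0.293 to 0.263, so no pairing by number was seen. With so wide a range this measure cannot exclude a weak tie by number. DESeq2 called 29 genes for the difference between housings, and unscaled totals gave 253 genes lower without overlap, against 488. The other alternatives (limma-voom, quality weights, size factors, upper quartile, both filters and sex) left the counts within 1.5 times. The cause of each change was not tested.

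List medians nearer 0 than 0.15 changed sign under several alternatives, among them, with all 8 libraries, immediate early genes under 12 of 21 (lowest −0.176), inhibitory transmission under 9 (−0.182), homeostatic microglia under 6 (−0.212), glutamate receptors under 4 (highest 0.092), antigen presentation under 3 (lowest −0.107) and effectors under 2 (−0.025). Of the medians at least 0.15 from 0, the following changed sign with all 8 libraries. With libraries left out in turn, medians ran from −0.074 (without SI_EE 4) to 0.271 for plaque-associated microglia, from −0.151 (without SI_EE 4) to 0.238 for complement, from −0.278 to 0.127 (without SI_EE 1) for monoamine receptors, from −1.455 to 2.435 (without SI_Con 4) for choroid plexus and from −0.009 (without SI_EE 4, −0.008 without SI_EE 2) to 0.507 for striatum. With quality weights, monoamine receptors were at 0.116, choroid plexus at 0.376 and olfactory bulb at −0.016. With surrogate variables, neuropeptides were at 0.033, thalamus at −0.144, cerebellum at −0.138 and olfactory bulb at −0.176. With limma-voom, choroid plexus was at 0.226 and striatum at −0.258. Without the libraries in which long genes read low, oxidative phosphorylation was at 0.01 and ribosomal proteins at 0.011. Olfactory bulb was at −0.055 with the stricter filter and at −0.068 with 2 groups only.

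Without SI_EE 1, choroid plexus was at 0.167 with limma-voom, 0.485 with quality weights, 0.142 with the replicate block and −2.136 to 2.454 with a further library left out (0.117 without SI_EE 2, 2.454 without SI_Con 4). Homeostatic microglia were at −0.028 (without SI_EE 4) to 0.282, and surrogate variables put thalamus at −0.054 and cerebellum at −0.031.

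Single genes changed sign mostly where the change was near 0. With 8 libraries and 1 left out in turn, Arc was at −0.191 to 0.452 (below 0 without SI_EE 2, SI_Con 1 or SI_Con 2), Trem2 at −0.063 to 0.592 (below 0 without SI_EE 4), Mbp at −0.1 to 0.09, Pvalb at −0.449 to 1.14, Gabrd at −0.251 to 0.254, App at −0.191 to 0.121 and Thy1 at −0.399 to 0.021, the last 4 with the other sign without SI_EE 1. Quality weights gave 0.123 for Mbp, −0.285 for Pvalb, −0.184 for Gabrd, 0.016 for App and 0.147 for Thy1. Surrogate variables gave 0.227 for Mbp, −0.233 for Pvalb, −0.197 for Gabrd and 0.356 for Thy1. Mbp was at 0.006 with sex, and without the libraries in which long genes read low Mbp was at 0.049 and Thy1 at 0.12. Without SI_EE 1, the length trend put Mbp at −0.035 and App at −0.052, the libraries in which long genes read low put App at −0.081 and surrogate variables put it at −0.049. With a further library left out, App was at −0.02 (without SI_Con 3) to 0.215 and Thy1 at −0.096 to 0.202.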
